A study of Homo sapiens and Mus musculus with 21 samples.

Results

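Intervals of 2000 bp or more on which RNA bound by DHX15 was enriched are described here. DHX15 is an RNA helicase, and the RNA came from CUTLL1, an established human line of T-cell acute lymphoblastic leukaemia. RNA immunoprecipitation (RIP) pulls a protein out of a cell lysate with an antibody and sequences the RNA that comes with it. The series holds 2 such libraries made with a DHX15 antibody, 1 made with IgG and 1 of input RNA, and the authors summarised them as 1 list of 4499 enriched intervals, called peaks. Of these, 1058 were at least 2000 bp long. The 940 of them that lay wholly inside the span of at least 1 RefSeq gene are called long peaks below, and the 858 genes that held them are called long-peak genes. Containment gave 1011 pairs of a peak and a gene, because 63 long peaks lay in 2 overlapping genes and 4 in 3. The choice used length and position alone, and no expression value. The 3 shortest long peaks lay in INTS9 (2003 bp), KCTD11 (2013 bp) and FANCA (2014 bp). The 3 longest contained peaks that fell short of the limit lay in WNT8B (1999 bp), INTS11 (1990 bp) and FCSK (1989 bp), and their enrichments were 1.61-fold, 2.39-fold and 1.57-fold.

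The response of these genes was read in 2 expression tables of CUTLL1 cells. In the first, cells were infected with lentivirus carrying a short hairpin against DHX15 (shDHX15-1 or shDHX15-2) or against GFP (shGFP, the control), with 3 libraries each. In the second, cells received 5 µM ciclopirox or its solvent DMSO, with 3 libraries each. The time after infection or treatment is not given in the sources used here. Labels do not state whether the libraries of a group were grown as independent cultures; the p-values reflect the spread among the libraries, which could be technical. Mouse thymus libraries of the series are not analysed here.

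DHX15 belongs to the DEAH-box helicases, which use ATP to pull RNA strands or proteins off RNA. With G-patch partner proteins such as TFIP11 it takes the spliceosome apart after an intron has been cut out and releases the intron lariat, and it also acts in ribosome biogenesis. It therefore meets both introns and exons of newly made transcripts. Ciclopirox is an iron-chelating antifungal drug.

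DHX15 itself held no peak. Its level in RPKM, which scales reads by gene length and library size, was 42.8, 44.1 and 43.2 in the shGFP libraries, 17.1, 17.3 and 16.5 with shDHX15-1, and 16.1, 16.5 and 16.8 with shDHX15-2. The fall on the log2(RPKM + 1) scale was -1.30 ± 0.03 (SE) and -1.34 ± 0.03. With ciclopirox its normalised count fell by 0.74 on the log2 scale. Of the T-cell markers, 8 of 9 listed reached a mean of 1 RPKM, with a summed level of 1055 to 1275 over the libraries; the 2 B-cell and 2 myeloid markers listed summed to 26.3 to 62.4 and 2.07 to 6.54. Libraries held 59702150 to 62633707 reads in the shRNA table and 32451469 to 37177509 in the ciclopirox table.

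Long peaks ranged from 2003 to 741094 bp, with a median of 4744.5 bp. Of the 940, 448 were at least 5000 bp long, 197 at least 10000 bp, 40 at least 50000 bp and 22 at least 100000 bp. A length is the distance on the genome between the ends of a peak. The list does not say which bases between the ends were covered by reads, and no exon annotation was used here, so the share of a peak that was exon or intron was not measured. Lengths were one more than a multiple of 25 bp in 95.5% of the contained peaks under 200 bp, in 35.8% of those of 200 to under 2000 bp and in 3.83% of the long peaks. Enrichment was similar in the 3 length classes, but no contained peak had a fold under 1.50 or a false discovery rate above 0.025. The medians lie close above that floor, which can make the classes look alike. The authors' fold enrichment had a median of 1.67 in long peaks, 1.63 in peaks of 200 to under 2000 bp and 1.64 in peaks under 200 bp. It was at least 2 in 127 long peaks (13.5%), and in 12.9% and 13.3% of the shorter classes. Over the 940 long peaks the rank correlation of length with fold was 0.04, a description across peaks of 1 list. Containment was slightly rarer for long peaks: 88.8% of them lay inside a gene, against 92.9% and 93.7% of the shorter classes.

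Nearly all long peaks were listed on the strand of their gene. Of 776 peaks in a gene whose strand RefSeq's start-site table gives, 756 lay on that strand and 20 on the other. The numbers in the peak names run largely in alphabetical order of gene symbols, so peaks may have been called gene by gene. Strand and containment could then have been set by the gene models used in calling. This was not tested, so the match is not read as a property of the bound RNA. The centres of 779 same-strand pairs fell in all parts of the gene: 113, 133, 177, 186 and 170 of them lay in 5 successive equal parts from the 5′ end, with the median centre at 55.7% of the gene. Only 8 pairs had a peak edge within 2 bp of a gene edge, so few intervals ended where a RefSeq gene span ends. Edges of single transcripts or of another annotation were not compared. The share of the gene span taken by all its long peaks together had a median of 20.6% over the 858 genes, with quartiles at 9.32% and 42.9%. At least 50% was covered in 173 genes and at least 90% in 19. By type, 788 of the genes were protein-coding and 58 were long non-coding RNAs. Their median span was 32718.5 bp, against 22050 bp for the 2365 genes that held shorter peaks alone.

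Some known microRNA hairpins lay between the ends of long peaks. The list does not say whether reads covered them, and no expected number of hairpins was worked out. Of 1562 hairpins in RefSeq's table (GRCh38.p14), 26 lay inside 23 long peaks, and 19 of them were on the strand of the peak. The 5 that stand for different hosts below are printed 5′ to 3′, with the mature microRNA strands in capitals. They are the hairpin in the longest peak of the list (HS6ST3), one in the host with the strongest enrichment among the 5 (FADS3), one in a histone methyltransferase gene (EZH1), and the 2 best-known microRNAs among them, miR-342 in EVL and miR-26a in CTDSP2.
MIR4501: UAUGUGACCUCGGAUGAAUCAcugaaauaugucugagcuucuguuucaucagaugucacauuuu
MIR6746: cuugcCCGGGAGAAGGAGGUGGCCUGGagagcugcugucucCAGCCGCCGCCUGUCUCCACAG
MIR6780A: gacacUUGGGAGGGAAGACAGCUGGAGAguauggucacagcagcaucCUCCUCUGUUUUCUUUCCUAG
MIR342: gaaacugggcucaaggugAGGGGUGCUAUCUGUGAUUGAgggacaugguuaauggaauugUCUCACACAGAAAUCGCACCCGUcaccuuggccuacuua
MIR26A2: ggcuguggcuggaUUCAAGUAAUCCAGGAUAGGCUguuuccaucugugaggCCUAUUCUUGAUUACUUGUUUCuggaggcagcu
On GRCh38, MIR4501 spans chr13:96427229-96427292 on the plus strand and MIR6746 chr11:61878216-61878278 on the minus strand. MIR6780A spans chr17:42708084-42708151 on the minus strand, MIR342 chr14:100109655-100109753 on the plus strand and MIR26A2 chr12:57824609-57824692 on the minus strand. The peak around MIR6746 in FADS3, a gene of the fatty acid desaturase family, was 5831 bp long and 3.26-fold enriched. Those around MIR342 and MIR26A2 were 20584 bp and 2745 bp long, with folds of 1.55 and 1.63. The peak in EZH1 was 3819 bp long, with a fold of 1.56. The microRNAs were not measured in these tables, which give values per gene.

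Gene starts also lay inside long peaks. Of 35120 windows in RefSeq's start-site table, each from 250 bp before to 50 bp after a start, 116 lay wholly inside 96 long peaks. Of these, 51 were further starts of the host gene itself and 49 of the 51 were on the strand of the peak. The other 65 belonged to another gene, and 55 of the 65 were on the strand opposite to the peak. The median GC content was 60.5% in the 116 windows and 58.7% in all windows of the table.

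Many of the longest peaks lay in genes with few or no reads in CUTLL1 cells. The longest of the list, in HS6ST3 at chr13:96091488-96832581 on the plus strand, spanned 741094 bp and 98.9% of this heparan sulfate 6-O-sulfotransferase gene, with a fold of 1.99. The next were 675255 bp of CCSER1 at chr4:90923403-91598657 (45.7% of the gene, 1.57-fold) and 467657 bp of NLGN1, which encodes the synaptic adhesion protein neuroligin 1, at chr3:173807736-174275392 (2.61-fold). The others of the 8 longest were in the neural cell adhesion gene NCAM2 (285674 bp), CLSTN2 (240643 bp), UNC13C (219156 bp), ABTB3 (200539 bp) and the calcium channel subunit gene CACNA2D1 (198574 bp). None of the 8 genes is listed in the shRNA table used here, and 4 are listed in the ciclopirox table.

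The DMSO libraries gave NLGN1 normalised counts of 2.41, 0 and 0, CLSTN2 1.21, 1.99 and 1.02, and ABTB3 0, 0 and 5.11. These levels amount to a handful of reads or none. CCSER1 stood apart, with 240.1, 265.3 and 229.0 in the DMSO libraries and 214.9, 188.2 and 155.2 with ciclopirox; the limma difference of -0.40 ± 0.17 had a Benjamini-Hochberg adjusted p of 0.073. Of the 40 genes whose longest peak reached 50000 bp, 25 are listed in the ciclopirox table, and 13 of the 25 (52.0%) averaged under 10 normalised counts in DMSO. The same share was 1.03% of 390 listed genes with a longest peak of 2000 to under 5000 bp, 3.57% of 224 with 5000 to under 10000 bp and 7.09% of 141 with 10000 to under 50000 bp. The median DMSO level fell from 1257 to 8.09 normalised counts between the first and the last of these classes. The median fold did not follow this order: it was 1.65, 1.68, 1.69 and 1.67 in the 4 classes, all close above the 1.50-fold floor of the list. Of the 40 peaks of 50000 bp or more, 33 lay on their gene's known strand, a match that calling gene by gene could have set. Counting error alone is large at these levels, and a level under 10 normalised counts rests on few reads.

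**Figure D1:**
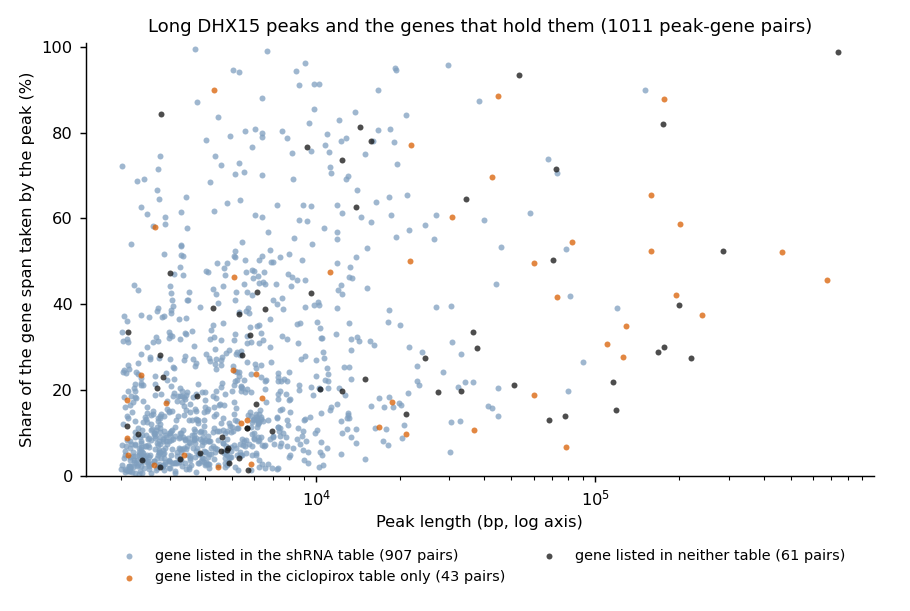
Each point is 1 of 1011 pairs of a long DHX15 peak and a gene that holds it, placed by peak length (bp, log axis) and by the share of the gene span that the peak takes (%). Colours give the expression table that lists the gene; to the right of 100000 bp 2 of 22 genes are listed in the shRNA table.

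A few genes with very long peaks could be followed in the tables. MACROD1, an ADP-ribose hydrolase gene, held a peak of 150916 bp over 90.1% of its span; its RPKM was 5.12, 4.38 and 4.60 with shGFP, 10.4, 9.15 and 9.61 with shDHX15-1, and 7.67, 6.63 and 6.97 with shDHX15-2, so the groups did not overlap. SPON1, an extracellular matrix protein gene with a peak of 119070 bp, had 201.5, 194.8 and 187.1 normalised counts with DMSO and 770.9, 757.3 and 745.4 with ciclopirox (log2 change 1.96 ± 0.12, limma adjusted p = 1.1e-06). NHSL2, with a peak of 158442 bp, is listed at 0 in all 3 DMSO libraries and at 22.9, 12.3 and 23.0 with ciclopirox, so it passed the filter on low values only through the treated libraries. These 3 genes were picked after their values were seen.

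Some single peaks took nearly the whole gene. The largest share by 1 peak was in EGFL8, an EGF-like domain gene, where a peak of 3666 bp at chr6:32164607-32168272 took 99.4% of the gene with a fold of 2.18; EGFL8 is also part of a read-through gene with PPT2, with which it can share reads. CLDN15, a claudin of tight junctions, followed with 99.2% in 6671 bp, then HS6ST3. JMJD7 was covered to 96.2%, GABBR1, a GABA-B receptor subunit gene, to 95.9% in 29663 bp with a fold of 2.70, and ADCK5 to 95.2%. EGFL8 had 4.33, 4.42 and 5.71 RPKM with shGFP and 8.76, 8.04 and 9.03 with shDHX15-1. ADCK5 had 4.67, 5.31 and 5.64 with shGFP, 10.5, 10.1 and 10.2 with shDHX15-1, and 9.09, 9.33 and 9.97 with shDHX15-2. Both genes were higher in every shDHX15-1 library than in any shGFP library, and ADCK5 rose with both hairpins (0.86 and 0.76 on the log2 scale, limma adjusted p = 1.1e-06 and 4.5e-06).

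The most enriched long peaks were not the longest. The peak of 2506 bp in the antisense RNA gene PROX1-AS1 at chr1:213981372-213983877 had the highest fold, 5.57, while the gene's level with shGFP was 0.149, 0.134 and 0.087 RPKM. Next came GOLGA8A (3.61-fold, 3167 bp), a peak of 36437 bp shared by NECAB1 and LOC105375634 (3.61-fold), the lysosomal iduronidase gene IDUA (3.46-fold, 4541 bp), the palmitoyltransferase gene ZDHHC8 (3.44-fold, 13739 bp and 84.8% of the gene) and TMEM134 (3.42-fold, 4792 bp). GOLGA8A had 14.5, 14.8 and 15.6 RPKM with shGFP, 38.5, 39.9 and 38.4 with shDHX15-1, and 21.3, 22.5 and 22.2 with shDHX15-2; it belongs to a family of near-identical copies among which reads could have been split. IDUA had 1.09, 0.691 and 0.978 RPKM with shGFP, 2.61, 2.47 and 2.62 with shDHX15-1, and 2.63, 2.24 and 2.31 with shDHX15-2. IDUA was thus higher in all 6 knockdown libraries than in any control, and it rose with ciclopirox (log2 change 1.67 ± 0.18, limma adjusted p = 2.8e-05). TMEM134 rose with both hairpins, by 0.42 and 0.41 on the log2 scale, and ZDHHC8 fell with shDHX15-2 by 0.29.

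Most genes, 737 of 858, held 1 long peak. There were 2 long peaks in 96 genes and 3 in 19. Those with 4 were DOT1L, the histone H3 lysine methyltransferase, covered to 62.0%; SIN3B, a corepressor scaffold, to 53.2%; GGA1, a Golgi sorting adaptor, to 88.1%; PARVG, a focal adhesion gene, to 39.1%; and JMJD7-PLA2G4B, a read-through gene that overlaps JMJD7 and shares reads with it. GDPD5 and FBRSL1 had 3 long peaks over 91.7% and 78.5% of their spans. DOT1L had 14.6, 14.2 and 15.6 RPKM with shGFP and 17.6, 17.9 and 18.1 with shDHX15-1, without overlap (log2 change 0.26 ± 0.04, limma adjusted p = 0.00016). With shDHX15-2 the difference was 0.05 ± 0.04 (limma adjusted p = 0.23). GDPD5 more than doubled with ciclopirox, from 599.7, 541.6 and 491.8 to 1233, 1377 and 1236 normalised counts.

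Of the 858 long-peak genes, 764 were listed in the shRNA table and 695 reached 1 RPKM in at least 3 of 9 libraries and were tested, among 15022 genes in all. The filter was passed in every library by 646 of the 695 and in the libraries of 1 group alone by 11, 9 of which passed through shDHX15-1. More long-peak genes were called higher than lower with each hairpin. With shDHX15-1, 440 (63.3%) were called higher at a limma adjusted p under 0.05, where the share over all genes tested was 45.4%, and 120 (17.3%) were called lower, where it was 28.9%. With shDHX15-2, 334 (48.1%) were called higher against 35.6% of all genes, and 178 (25.6%) lower against 30.1%. Both hairpins, which share the shGFP libraries, called 317 (45.6%) higher and 100 (14.4%) lower, where the shares over all genes were 28.8% and 20.4%.

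The long-peak genes tested had a median of 6.59 RPKM, against 7.07 for all genes, and levels were matched by dividing all genes tested into 10 equal bins of mean log2 expression. Genes from the same bins would have given 29.4% higher and 19.8% lower with both hairpins. Per hairpin the matched shares were 46.2% and 36.0% higher and 28.0% and 29.7% lower. Long-peak genes were called higher more often than the other genes of their bin in 10 of 10 bins, and lower more often in 3. Genes with long peaks were also longer: the median span was 29260 bp for the members tested and 25260 bp for the 12015 genes tested that matched RefSeq. Genes from the same bins of gene length would have given 30.9% higher and 23.0% lower with both hairpins. The changes were small for most genes: the median log2 change, as the mean of both hairpins, was 0.16 for long-peak genes and 0.06 for all genes tested. A called change of at least 2-fold was seen in 9 of the 695 and in 196 of all 15022 genes, a like share. Centring each library on its median moved the median change of all genes with shDHX15-1 by over 0.1, from 0.09 to -0.02. Both hairpins then called 263 long-peak genes higher and 144 lower, so that 64.6% of the calls were rises in place of 76.0%, where all genes gave 21.7% higher and 27.1% lower. The strand used in counting is not given in the sources used here, so reads of a gene and of a gene overlapping it, such as an antisense partner, cannot be told apart. In bulk RNA, likewise, a changed share of cells and a changed level per cell cannot be told apart.

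**Figure D2:**
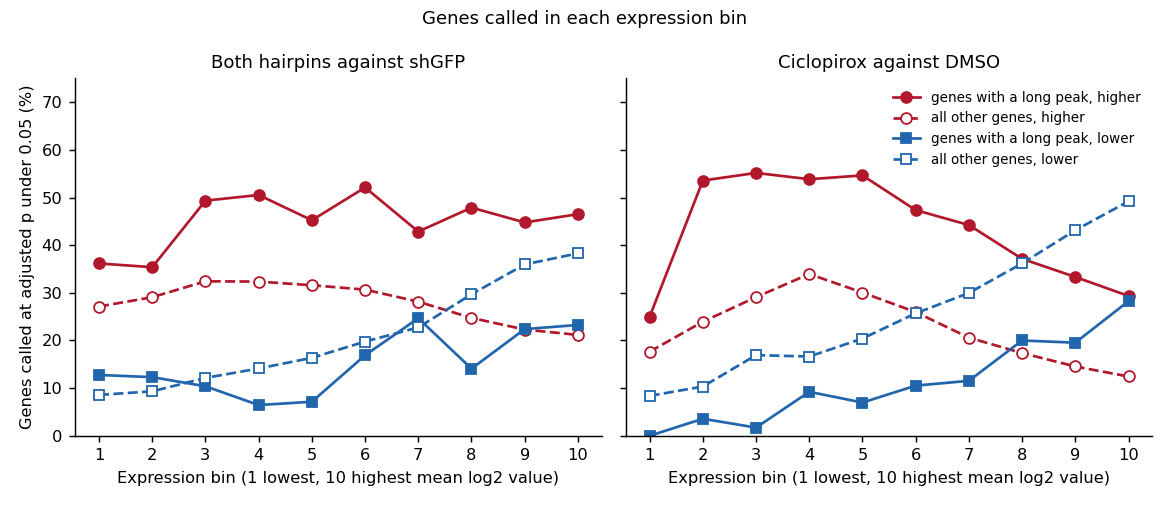
Percent of genes called higher (red circles) and lower (blue squares) at an adjusted p under 0.05, in 10 bins of mean log2 expression, for genes with a long peak (solid) and all other genes (dashed). The solid red line lies above the dashed red line in 10 of 10 bins in both comparisons.

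The share that rose was larger for genes with longer peaks. With both hairpins, 29.4% of 977 genes with only peaks under 200 bp were called higher, 36.3% of 992 genes whose longest peak was 200 to under 2000 bp, 41.5% of 369 with 2000 to under 5000 bp, 47.1% of 208 with 5000 to under 10000 bp and 57.3% of 110 with 10000 to under 50000 bp. The shares matched on expression stayed between 28.8% and 29.6% over these classes. Gene spans grew with peak length, with medians of 26246, 27796 and 50404 bp in the 3 classes from 2000 to under 50000 bp. Shares matched on gene length were not worked out per class. The share called lower went the other way, from 22.4% to 18.5%, 17.6%, 12.5% and 7.27%. Above 50000 bp only 8 genes were tested, of which 3 were called higher and 1 lower. The covered share of the gene gave a like order, with 40.7% higher below 10% covered, 46.4% from 10% to 50% and 50.4% at 50% or more. No test of a trend over these classes was made, because genes are not replicates of a condition. Among long non-coding RNA genes, 14 of 23 tested (60.9%) were called higher by both hairpins, where the matched share was 28.8%.

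**Figure D3:**
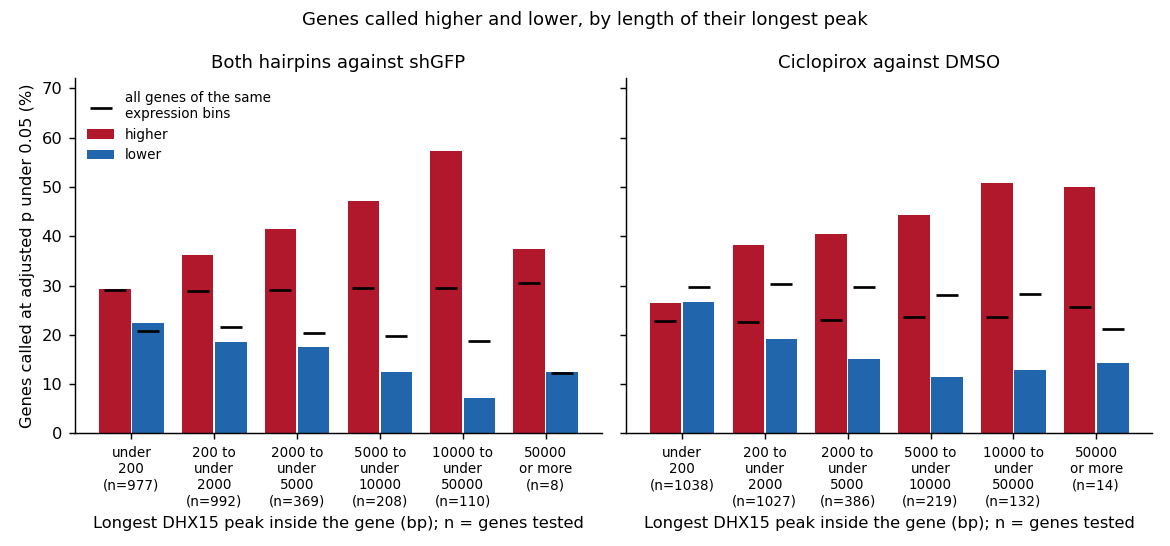
Bars give the percent of genes called higher (red) and lower (blue) at an adjusted p under 0.05, by the longest DHX15 peak inside the gene (bp; n is the number of genes tested), and black marks give the percent of all genes in the same expression bins. The red bars for both hairpins go from 29.4% to 57.3% over the first 5 classes, while the black marks beside those bars stay near 29%.

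The largest rises with both hairpins were in genes of low to moderate level. CD244, a receptor of natural killer and T cells, had 5.61, 5.24 and 4.99 RPKM with shGFP, 16.4, 16.8 and 17.1 with shDHX15-1, and 35.3, 37.2 and 36.3 with shDHX15-2. The 3 groups did not overlap, and the log2 changes were 1.50 ± 0.04 and 2.57 ± 0.04 (limma adjusted p = 4.1e-09 and 4e-10). TSPOAP1, which binds the mitochondrial translocator protein and held 3 long peaks over 78.7% of its span, went from 3.81, 3.69 and 4.02 to 17.7, 17.4 and 18.2 and to 9.39, 9.63 and 9.68. SPNS3, a gene of the spinster transporter family, went from 8.94, 8.64 and 9.71 to 31.6, 30.0 and 30.6 and to 20.3, 20.1 and 20.3. KCNAB2, a potassium channel subunit gene, went from 16.2, 16.9 and 16.8 to 35.2, 33.4 and 34.9 and to 35.5, 35.6 and 36.0. All knockdown libraries lay above all shGFP libraries for these genes. PDZD4, MICALL2, SH3D21 and CCDC88B completed the 8 largest, with the smaller of their log2 changes between 0.91 and 1.16. MICALL2 had 0.181, 0.178 and 0.222 RPKM with shGFP and passed the filter on low values only through the knockdown libraries.

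The largest falls were shallower. RAP1GAP, which inactivates the GTPase RAP1, had 30.8, 31.5 and 31.6 RPKM with shGFP, 16.0, 16.0 and 15.7 with shDHX15-1, and 15.3, 15.4 and 15.5 with shDHX15-2, with log2 changes of -0.93 ± 0.02 and -0.98 ± 0.02. LIN28B, a repressor of let-7 microRNA maturation, went from 16.7, 17.8 and 16.9 to 11.4, 11.3 and 10.9 and to 10.5, 10.5 and 10.0. RANGAP1, the activator of the Ran GTPase in nuclear transport, went from 44.6, 43.5 and 45.5 to 31.2, 30.1 and 31.2 and to 32.2, 31.6 and 31.3. None of these groups overlapped with its control. PLEKHM1, CLPTM1L, GAS2L1, ULBP2 and MYO7B were the other 5, and the smaller of their falls lay between -0.72 and -0.46 on the log2 scale.

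**Figure D4:**
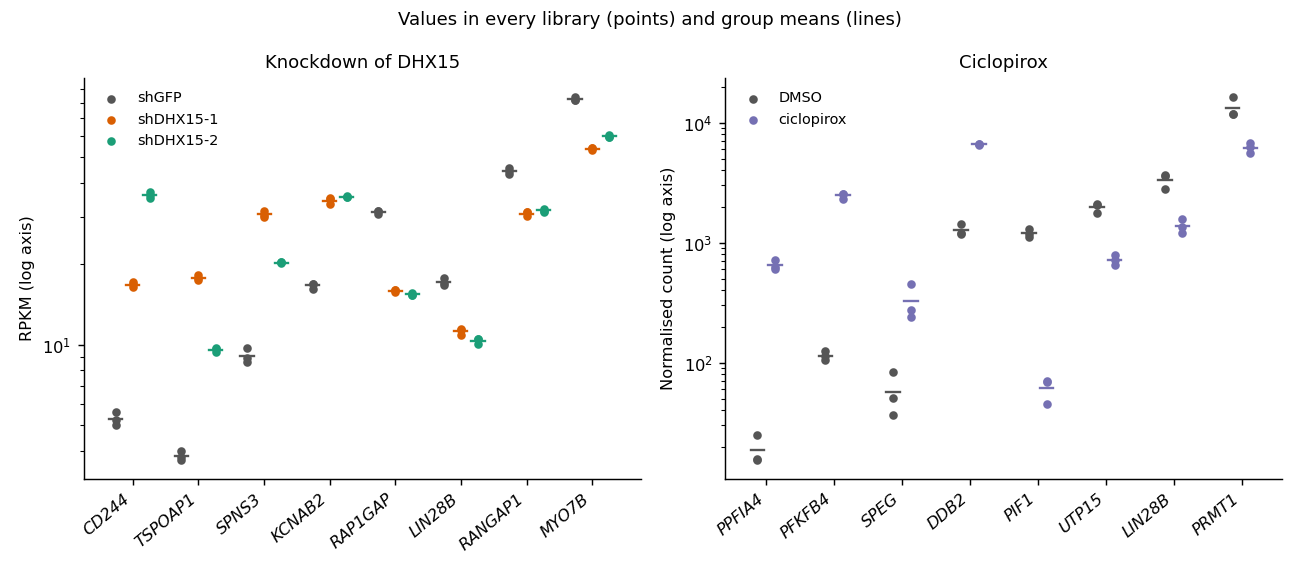
Values in each library (points) and group means (lines) on log axes, for 8 long-peak genes in RPKM after knockdown of DHX15 and for 8 in normalised counts after ciclopirox. The knockdown or treated points lie apart from the control points for every gene shown.

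Of the long-peak genes, 780 were listed in the ciclopirox table and 751 reached a normalised count of 10 in at least 3 of 6 libraries. The filter was passed in every library by 737 of them. Ciclopirox called 327 (43.5%) higher at a limma adjusted p under 0.05, against 23.5% of the 16825 genes tested, and 102 (13.6%) lower, against 25.0%. Genes from the same expression bins would have given 23.4% and 28.9%, and genes from the same bins of gene length 25.0% and 26.7%. Long-peak genes were called higher more often than the others in 10 of 10 expression bins and lower more often in 0. The median log2 change was 0.25 for long-peak genes and -0.02 for all genes. By length of the longest peak, 26.4% were called higher below 200 bp, 38.3% from 200 to under 2000 bp, 40.4% from 2000 to under 5000 bp, 44.3% from 5000 to under 10000 bp and 50.8% from 10000 to under 50000 bp. With at least 50% of the gene covered, 70 of 139 (50.4%) were called higher and 11 (7.91%) lower.

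PPFIA4, a liprin gene, had the largest rise, from 15.7, 24.8 and 15.3 normalised counts with DMSO to 601.8, 723.3 and 630.5 with ciclopirox (log2 change 5.09 ± 0.23, limma adjusted p = 1.1e-07). PFKFB4, a regulator of glycolysis, rose from 113.4, 124.2 and 105.3 to 2545, 2554 and 2329. DDB2, a DNA damage recognition gene and target of p53, rose from 1441, 1206 and 1180 to 6640, 6697 and 6455. Most listed p53 targets and hypoxia genes, with or without a long peak, rose with the drug, as counted below. The treated libraries lay above all DMSO libraries for PPFIA4, PFKFB4 and DDB2. They also did for SPEG, with 83.3, 50.7 and 36.8 against 239.8, 456.7 and 275.9. SH3D21, FN3K, SPNS3 and MICALL2 completed the 8 largest rises, with log2 changes of 3.21, 2.71, 2.46 and 2.36. The ranking kept genes that averaged at least 100 normalised counts over all 6 libraries. PPFIA4, SH3D21, SPEG and MICALL2 averaged 18.6, 38.9, 56.9 and 60.2 with DMSO. They reached that mean only through the treated libraries, which favours large rises from a low level.

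The largest fall was in PIF1, a DNA helicase gene of which a peak of 9402 bp took 82.3%. Its normalised counts were 1291, 1126 and 1176 with DMSO and 44.9, 70.0 and 69.0 with ciclopirox (log2 change -4.29 ± 0.19, limma adjusted p = 1e-07). The other 7 largest falls were much smaller. UTP15, a factor of small ribosomal subunit assembly, went from 1772, 2100 and 2054 to 646.7, 712.9 and 796.2 (-1.46), and LIN28B from 2790, 3575 and 3692 to 1208, 1339 and 1562 (-1.29). PRMT1, the main arginine methyltransferase, fell by 1.10 on the log2 scale, RANGAP1 by 1.02 and AIMP2, of the multi-tRNA synthetase complex, by 1.14. CAMKK2 fell by 1.38 and PIMREG by 1.58, and in PIMREG both hairpins gave a rise of 0.26.

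Knockdown and ciclopirox do not share libraries, and 663 long-peak genes were tested in both tables. Of these, 175 (26.4%) were higher with both hairpins and with ciclopirox, a share of 58.3% of the 300 that rose on knockdown and 61.4% of the 285 that rose with the drug. Among all 10822 genes tested in both tables, 1263 (11.7%) were higher in both, 38.7% of those that rose on knockdown and 50.6% of those that rose with the drug. Long-peak genes were called higher with the drug more often in any case (43.5% of those tested, against 23.5% of all genes). The larger shared percentage is read beside that. A fall in both was seen in 41 long-peak genes (6.18%) and in 1457 of all genes (13.5%). These were 42.3% of the 97 long-peak genes that fell on knockdown, against 59.5% for all genes. Opposite calls were fewer and, over all genes tested, near the shares of all genes: 22 genes (3.32%) were higher on knockdown and lower with ciclopirox, against 4.01% of all genes, and 13 (1.96%) the other way, against 1.64%. The 22 were 7.33% of the rises on knockdown, against 13.3% for all genes. They were 24.2% of the 91 falls with ciclopirox, against 13.2%. PIF1 differed by 0.11 ± 0.07 with shDHX15-1, within the spread, and fell by 0.24 with shDHX15-2. RAP1GAP differed by 0.03 ± 0.13 with ciclopirox.

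**Figure D5:**
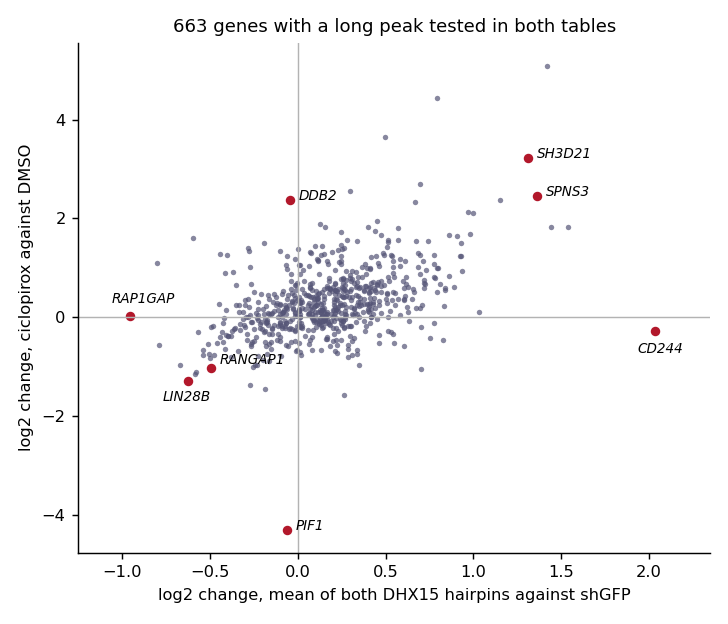
Each point is 1 of 663 long-peak genes tested in both tables, placed by its log2 change on knockdown (mean of both hairpins against shGFP) and with ciclopirox against DMSO; named genes are in red. More points lie at the upper right, where 175 genes were called higher in both, than in the lower left, where 41 were called lower in both.

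By function, long peaks were in 9 of 44 genes for enzymes that write or erase histone and DNA methylation or acetylation marks. They were DOT1L, KMT2D, SETD1B, EZH1, EZH2, DNMT3A, DNMT3B, HDAC7 and HDAC10, and both hairpins called 6 of the 9 higher and 1 lower, where the shares over all genes were 28.8% and 20.4%; of the whole list, 19 of 43 tested were higher and 2 lower. Over all genes tested that matched RefSeq, 5.78% held a long peak. The histone deacetylase gene HDAC7 went from 20.8, 21.1 and 21.4 RPKM to 35.0, 35.3 and 35.5 with shDHX15-1 and to 27.1, 26.6 and 27.5 with shDHX15-2. DNMT3B, a DNA methyltransferase gene, went from 27.0, 24.5 and 24.5 to 33.3, 33.7 and 32.6 and to 35.7, 35.9 and 35.4. EZH1, the host of MIR6780A, rose by 0.69 and 0.20 on the log2 scale. Knockdown libraries lay above all shGFP libraries for HDAC7 and DNMT3B, and with ciclopirox HDAC7 rose by 1.26 ± 0.09 while DNMT3B differed by 0.08 ± 0.09.

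DNA repair and genome stability genes with a long peak numbered 7 of 45. They were BRCA1, FANCA, RAD52, MSH5, RTEL1, PIF1 and TERT, of which both hairpins called 4 higher and 1 lower, beside 21 higher and 5 lower of the whole list of 45 and 28.8% and 20.4% of all genes. FANCA, of the Fanconi anaemia core complex, went from 10.0, 9.94 and 9.92 RPKM to 14.8, 14.9 and 15.0 with shDHX15-1 and to 11.7, 11.9 and 11.7 with shDHX15-2. TERT, the telomerase reverse transcriptase gene, with a peak of 13329 bp, went the other way, from 2.07, 1.86 and 1.84 to 1.18, 1.29 and 1.48 and to 0.737, 0.618 and 0.682. Both genes kept knockdown and control libraries apart.

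Splicing genes held long peaks at about the share of all genes, 5.78%. There were 3 of 58 core spliceosome genes (SF3A2, SNRNP70 and PPIE), 3 of 53 SR and hnRNP genes (SRSF11, HNRNPH1 and SRRM2), 1 of 10 CLK and SRPK kinase genes (CLK2) and 1 of 24 genes for G-patch proteins (CHERP). The hairpin changes of the 3 core genes with a long peak were small, but these 3 did not stand for the whole list. Of all 58 core genes, both hairpins called 7 higher and 32 lower, where the shares over all genes were 28.8% and 20.4%. Ciclopirox called 3 of 56 core genes higher and 34 lower. SF3A2 differed by 0.01 ± 0.02 and 0.02 ± 0.02 with the hairpins, SNRNP70 by 0.01 ± 0.02 and -0.09 ± 0.02, and PPIE, a spliceosomal cyclophilin gene covered to 40.5%, by 0.03 ± 0.04 and -0.06 ± 0.04. HNRNPH1, a splicing silencer gene, had 98.6, 99.4 and 101.1 RPKM with shGFP, 127.5, 130.9 and 128.9 with shDHX15-1, and 125.9, 125.1 and 124.0 with shDHX15-2. HNRNPH1 and CLK2 (0.39 and 0.42 on the log2 scale) rose with both hairpins, and CHERP fell by 0.17 and 0.14. With ciclopirox HNRNPH1 fell by 0.96.

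The counts of the other lists were small and are read beside the 5.78% of all genes. There were 2 of 43 mTORC1 and amino acid sensing genes, of which WDR59 fell by 0.22 and 0.40 with the hairpins. There were 2 of 30 RNA decay genes (UPF2 and SMG5), 2 of 26 p53 targets (BAX and DDB2), 1 of 32 hypoxia genes (PFKFB4) and 1 of 34 ribosome biogenesis genes (NOL11). UPF2, a core factor of nonsense-mediated decay, rose by 0.31 and 0.29, while SMG5, of the same pathway, differed by -0.05 ± 0.03 and -0.13 ± 0.03. The cell death effector BAX fell with both hairpins, by 0.18 and 0.36, and rose with ciclopirox by 1.02 ± 0.12. Of the whole lists, ciclopirox called 22 of 23 p53 targets higher and 0 lower. It called 25 of 29 hypoxia genes higher and 1 lower, and 32 of 32 ribosome biogenesis genes lower. The shares over all genes were 23.5% higher and 25.0% lower. Both hairpins called 28 of 30 hypoxia genes higher and 1 lower. They called 7 of 23 p53 targets higher and 7 lower, and 32 of 34 ribosome biogenesis genes lower. None were in 28 snoRNA and microRNA host genes, 18 nuclear long non-coding RNAs, 24 chromatin remodellers, 18 amino acid transporters, 25 genes of the ATF4 response or 16 NOTCH genes. SLC7A5, the large neutral amino acid transporter gene, held 1 peak of 51 bp, and SLC7A6 held 3 of at most 945 bp.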

How the data were processed

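Peaks, RNA levels after DHX15 knockdown and RNA levels after ciclopirox came from 3 tables of the series. RNA-seq libraries were made from poly(A)+ RNA, per the labels' protocols. The submitters' processing notes name DESeq2 1.32.0, DESeq, STAR (2.7.5c and 2.4.1.7) and FastQC 0.11.9 without roles, and the builds hg19, hg38 and mm10. The deposited peak list gives, per the file headers, a fold enrichment (ratio), a p-value, a false discovery rate and a score for each peak. Not given in the sources used here are its peak caller, its build, the terms of the fold and any pooling of replicates. In the deposited list the score equals -log2 of the false discovery rate. The authors gave the shRNA libraries in RPKM. They gave the ciclopirox libraries as counts divided by a size factor per library (signal, per the file headers naming hg38 gene counts), with their own log2 fold changes, test statistics and p-values, which were not used.

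A long peak had a length of at least 2000 bp and lay wholly inside a gene span of RefSeq GRCh38.p14. That annotation places most peaks inside genes on the strand the peak has, but the build of the peak list was not stated. Gene names were matched by symbol or identifier. limma 3.58.1 (R 4.3.3) with a trended prior was fitted to log2(RPKM + 1) over 9 libraries and to log2(normalised count + 1) over 6, with genes at 1 RPKM or 10 normalised counts in at least 3 libraries. P-values were two-sided and adjusted by Benjamini-Hochberg over all genes tested, with calls under 0.05. Fold changes on these scales understate those of low genes. Errors after ± are standard errors unless marked. Expression-matched shares are the shares called in the same 10 bins of mean expression, weighted by the long-peak genes in each bin. Whole reads could be recovered from both deposited tables (100.0% of values, within 1e-05 and 0.01 reads), and edgeR 4.0.16 and DESeq2 1.42.0 were run on them as alternatives. The fits were tested on simulated data. Same-numbered libraries did not deviate together (correlations of -0.1079 to 0.1628), so the numbers were not taken as pairs.

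Named genes were those of the 8 longest peaks, of the 6 with the largest share of a gene and of the 6 with the highest fold, and the 8 with the most long peaks. They were also the 8 largest rises and 8 falls with both hairpins (by the smaller change, at 1 RPKM or more) and with ciclopirox (at 100 normalised counts or more), and up to 4 per gene list by peak length. Both of these levels were means over control and treated libraries together. Further members of lists, hosts of microRNAs and genes so marked were named in addition. The members and lists were chosen with earlier results of these data known. Python 3.11.15 and pandas 2.3.3 were used. Mouse single-cell libraries were left out, and some members that the rule names are not reported here.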

Additional observations from a re-analysis of the deposited data

How the results depend on the processing

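Of 244 alternatives for the main counts and medians, 206 stayed within 1.5 times the count or within the spread between replicates, and 0 changed direction. The median log2 change over the long-peak genes, as the mean of both hairpins, was 0.16 and became 0.0851 with median-centring or quantile normalisation, 0.12 with DESeq2, 0.13 with edgeR, 0.164 with a minimum of 5 RPKM, 0.145 with no filter and 0.186 with a pseudocount of 0.1. It was 0.165 for peaks of at least 3000 bp, 0.154 for peaks inside exactly 1 gene, 0.151 for protein-coding genes, 0.151 where gene and peak share a strand and 0.168 where at least 50% of the peak overlapped the gene. Median-centring gave 182 genes lower with shDHX15-1 and a ciclopirox median of 0.162. It moved the medians over all genes tested too. These went from 0.056 to -0.017 for the mean of both hairpins and from -0.016 to -0.104 with ciclopirox. The 470 peaks at or under the median false discovery rate lay in 449 genes. Keeping them gave, higher and lower, 247 and 66 with shDHX15-1, 193 and 99 with shDHX15-2, 181 and 57 with both and 159 and 59 with ciclopirox, with medians of 0.164 and 0.193. Keeping the 127 peaks of at least 2-fold, in 133 genes, gave 68 and 11, 54 and 23, 52 and 10, and 59 and 9, with medians of 0.226 and 0.393. In the same order, the shares over all genes were 45.4% and 28.9%, 35.6% and 30.1%, 28.8% and 20.4%, and 23.5% and 25.0%. The number of genes tested in each subset is not given here, so no percents are set beside these shares. Both choices of peaks keep fewer genes by construction. Median-centring shifts every gene of a library by the same amount. The cause of the other shifts was not tested.

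Leaving out 1 library at a time gave 429 to 440 higher and 111 to 120 lower with shDHX15-1, 309 to 332 and 168 to 178 with shDHX15-2, 295 to 315 and 93 to 99 with both, and 276 to 382 and 77 to 111 with ciclopirox, lowest without ciclopirox replicate 1 and highest without DMSO replicate 1. The medians ranged from 0.157 to 0.168 and from 0.222 to 0.31. With the replicate block the counts were 439 and 119, 328 and 176, 313 and 96, and 333 and 106. Of 1524 such omissions for named genes, 39 ended a call. Under quantile normalisation NECAB1 with shDHX15-1 turned to -0.0322 and SNRNP70 with shDHX15-2 to 0.00947. Depth limits what can be said of genes with peaks of 50000 bp or more, of which 13 of 25 listed averaged under 10 normalised counts with DMSO. The gene-length bins were added after seeing the data.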

Other observations

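Long peaks made up 20.9% of all 4499 peaks. They were 59 of 186 peaks on chromosome 22 (31.7%), 16 of 44 on chromosome 21 (36.4%), 10 of 30 on chromosome 18 (33.3%), 34 of 111 on chromosome 20 (30.6%) and 20 of 141 on chromosome 14 (14.2%). No test of these shares was made.

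The hosts of printed microRNA hairpins differed in their response. CTDSP2, a nuclear phosphatase gene and host of MIR26A2, had 85.6, 83.7 and 83.1 RPKM with shGFP, 96.7, 95.4 and 95.7 with shDHX15-1, and 49.8, 51.2 and 51.3 with shDHX15-2. The hairpins thus lay on opposite sides of the control, without overlap, and the values are given as a description of a gene chosen after they were seen. EVL, an actin regulator and host of MIR342, had 59.3, 58.5 and 59.8 with shGFP, 62.7, 63.9 and 64.0 with shDHX15-1, and 57.4, 56.9 and 56.7 with shDHX15-2. FADS3, host of MIR6746, was too low in the shRNA table to be tested and had 36.2, 31.8 and 10.2 normalised counts with DMSO against 138.5, 130.5 and 107.3 with ciclopirox.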
